A study of Homo sapiens with 9 samples.

Results

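Long stretches of H3K9me3 that contain no protein-coding gene are described here in hTERT RPE-1 cells that overexpressed lamin B1 or a fluorescent control protein. The domains of 8 deposited lists were merged wherever they overlapped by at least 1 bp on the autosomes. A merged region was kept when it was at least 200 kb long and touched no protein-coding gene body of the GRCh38 annotation. This left 269 of 11526 merged regions, which span 152.835 Mb and hold 6019 of the 55709 autosomal domains. Another 486 merged regions were equally long and touched a gene. They serve as the comparison and are called gene-holding regions below. The listed domains themselves chose the regions, so the length of a region and its presence in at least 1 library are not findings.

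hTERT RPE-1 is an established human line of retinal pigment epithelium immortalised with telomerase. Its LmnB1 group overexpressed mCherry fused to lamin B1 and its mCherry group overexpressed mCherry alone, and both were given doxycycline at 0.05 ug/mL for 24 h. Each construct was carried by 2 stable clones (LmnB1_6 and LmnB1_16 for lamin B1, mCherry_4 and mCherry_3 for the control) grown as 2 biological replicates each, so 2 clonal lines represent a construct. H3K9me3 was profiled by Cut&Run, in which an antibody-tethered nuclease releases the marked DNA for sequencing, and an input of untreated wild-type cells gave 1 control for all lists. All cells were grown with hygromycin B.

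H3K9me3 is written by the SETDB1 and SUV39H enzymes and is bound by HP1 proteins, which compact the chromatin. In many cell types a large part of this chromatin touches the nuclear lamina, the meshwork of lamin filaments under the nuclear envelope. Gene deserts, the long intervals between developmental and neuronal genes, are a common home of such lamina-associated domains. They are not empty of transcripts, since long non-coding RNAs (lncRNAs) and some microRNAs start inside them.

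The sequences that mark the main patterns of the results are shown first, from RefSeq on GRCh38.p14. A library is said to hold a site when the site lies inside one of its listed domains. The first set is of mature microRNAs encoded inside the regions, written 5′ to 3′ with the seed, bases 2 to 8, in capitals. The microRNAs of MIR1251, MIR135A2, MIR4495 and MIR4303 lie on chromosome 12 in 2 neighbouring regions that only the clone LmnB1_6 lacked. MIR4431 on chromosome 2 lies in a region that LmnB1_6 held alone, and MIR4490 and MIR1261 on chromosome 11 lie in a region that all 8 libraries held.
hsa-miR-1251-5p: aCUCUAGCugccaaaggcgcu
hsa-miR-1251-3p: cGCUUUGCucagccaguguag
hsa-miR-135a-2-3p: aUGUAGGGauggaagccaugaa
hsa-miR-4495: aAUGUAAAcaggcuuuuugcu
hsa-miR-4303: uUCUGAGCugaggacag
hsa-miR-4431: gCGACUCUgaaaacuagaaggu
hsa-miR-4490: uCUGGUAAgagauuugggcaua
hsa-miR-1261: aUGGAUAAggcuuuggcuu
Of these 8 microRNAs, hsa-miR-135a-2-3p shared its seed with 1 other mature human microRNA of the table, hsa-miR-135b-3p, and the other 7 seeds occurred once. The chr12:97563872-97563893 site of hsa-miR-135a-2-3p was held by 5 libraries, because it fell into a gap of mCherry_4 replicate 1. The chr2:52702588-52702609 site of hsa-miR-4431 was held by both LmnB1_6 libraries and no other. In all, 25 mature microRNAs were matched inside the regions, and 8 of them were held by all 8 libraries.

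The second set is of lncRNA promoters, 250 bases before to 50 after the start on the gene's strand, with every CpG in capitals. LINC02914 stands for a region held in every library, RMST for one missing in LmnB1_6, LINC00377 and LOC105378477 for regions of LmnB1_6 alone, and LINC00571 for a region listed mainly with LmnB1.
LINC02914: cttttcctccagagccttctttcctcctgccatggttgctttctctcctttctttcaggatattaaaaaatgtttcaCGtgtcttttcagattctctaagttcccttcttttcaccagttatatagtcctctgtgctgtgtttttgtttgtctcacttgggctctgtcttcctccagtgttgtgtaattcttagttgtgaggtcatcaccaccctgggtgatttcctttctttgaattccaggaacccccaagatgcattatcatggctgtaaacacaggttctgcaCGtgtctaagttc
RMST: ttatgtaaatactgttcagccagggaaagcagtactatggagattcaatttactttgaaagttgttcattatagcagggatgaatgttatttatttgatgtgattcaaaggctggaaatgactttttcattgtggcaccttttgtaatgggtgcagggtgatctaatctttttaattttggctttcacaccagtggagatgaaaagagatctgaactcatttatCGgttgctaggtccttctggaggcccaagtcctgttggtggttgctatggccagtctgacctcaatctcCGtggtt
LINC00377: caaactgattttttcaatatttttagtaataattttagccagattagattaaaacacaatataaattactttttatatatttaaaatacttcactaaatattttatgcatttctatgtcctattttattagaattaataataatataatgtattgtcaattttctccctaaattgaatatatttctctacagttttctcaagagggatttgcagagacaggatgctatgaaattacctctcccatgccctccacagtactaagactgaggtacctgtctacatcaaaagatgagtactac
LOC105378477: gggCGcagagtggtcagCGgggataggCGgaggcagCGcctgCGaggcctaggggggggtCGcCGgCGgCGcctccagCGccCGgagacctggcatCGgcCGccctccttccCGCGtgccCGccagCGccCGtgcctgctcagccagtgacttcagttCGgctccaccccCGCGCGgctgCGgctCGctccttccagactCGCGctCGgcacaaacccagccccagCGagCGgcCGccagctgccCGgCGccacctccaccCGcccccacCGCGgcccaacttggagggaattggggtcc
LINC00571: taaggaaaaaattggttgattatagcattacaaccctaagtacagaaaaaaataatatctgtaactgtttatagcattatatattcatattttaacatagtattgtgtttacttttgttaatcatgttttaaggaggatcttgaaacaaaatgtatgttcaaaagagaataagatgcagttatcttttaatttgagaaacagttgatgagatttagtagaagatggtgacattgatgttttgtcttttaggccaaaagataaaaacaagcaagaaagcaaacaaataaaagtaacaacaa
The LINC02914 promoter (chr14:98711363-98711662, plus strand) and the RMST promoter (chr12:97464441-97464740, plus strand) each held 2 CpGs in 300 bases. LINC00377 (chr13:81018141-81018440, plus strand) and LINC00571 (chr13:38143183-38143482, minus strand) held 0. LOC105378477 (chr10:108466348-108466647, minus strand) is the exception in this set, with 35 CpGs and a GC content of 75.7%, and still lay inside a domain of both LmnB1_6 libraries.

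The choice of regions did not use the base composition of promoters, but it left out every promoter inside a protein-coding gene body. The comparison sets keep such promoters. Of 384 lncRNA genes, 437 promoters lay inside the regions, with a median GC content of 40.7%. The median was 50% over all 12569 autosomal lncRNA promoters and 62.7% over 21156 promoters of protein-coding genes. A ratio of observed to expected CpG of at least 0.6 was met by 8.47% of the promoters inside the regions, 26.1% of all lncRNA promoters and 62.6% of protein-coding promoters. The letters TATAAA, searched on both strands, occurred in 27.0%, 15.04% and 9.51% of the 3 sets. The promoters inside gene-free H3K9me3 were thus poorer in GC and CpG than lncRNA promoters at large, as a description of neighbouring sequences that are not independent. No set of lncRNA promoters outside gene bodies was compared, so the part of the gene-free rule in these differences was not tested. Of the 437 promoters, 75 were held by all 8 libraries and 63 by 1 library alone. Per library, LmnB1_6 replicate 1 held 87.9% of them and mCherry_4 replicate 2 held 32.3%, with the other libraries between 47.8% and 69.8%.

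The regions were spread over all 22 autosomes. Their median length was 427 kb, with a range from 200 to 2468 kb, against 578 kb for the gene-holding regions, and 37 of them reached 1000 kb. The median distance to the nearest protein-coding gene was 168 kb. In 170 regions it was over 100 kb, and in 99 a gene lay within 100 kb. The rule itself keeps genes out of the regions, and no distance was computed for a comparison set. In 25 regions a gene lay within 10 kb, and in 51 none lay within 500 kb. Chromosome 3 held 23 regions, chromosome 4 held 22 and chromosome 5 held 21. Gene-free regions made up 48.5% of all long H3K9me3 on chromosome 4 and 48.4% on chromosome 14, but 12.02% on chromosome 15. The 269 regions occupied 191 intervals between neighbouring genes, and 50 intervals held more than 1 region. The interval between GBE1 and CADM2 on chromosome 3 held 5. Just inside the length limit, the regions between ROBO1 and GBE1 on chromosome 3 and between ZNF519 and POTEC on chromosome 18 measured 200 kb, with a mean covered share over the 8 libraries of 15.1% and 59.2%. Just outside it, the next 3 gene-free regions measured 199, 197 and 197 kb, with means of 15.3%, 19.7% and 90.9%.

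Regions without protein-coding genes were not without other genes. The annotation placed 725 lncRNA genes in 222 of the regions, 576 pseudogenes in 192 and 26 microRNA genes in 22, while 13 regions held no gene of the 8 kinds counted. A pair of neighbouring regions beyond TMEM121 at the end of chromosome 14 (chr14:106104001-106477000 and chr14:106482001-106714000) held 31 immunoglobulin V segments and 62 V segment pseudogenes, which the annotation does not class as protein-coding. All 8 libraries covered them by 64.6% to 100%. V segments are the variable parts that B cells join into antibody heavy chain genes.

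The genes on either side included members of several adhesion and guidance families. Among 361 flanking genes, 12 were cadherins of the CDH family (such as CDH9, CDH10, CDH12 and CDH18), which join cells through calcium-dependent contacts. They made up 3.32% of the flanking genes and 0.146% of all autosomal protein-coding genes. The ephrin receptors EPHA3, EPHA5, EPHA6 and EPHA7, which guide axons, were 4 of 9 EPHA genes, the teneurins TENM2 and TENM4 were 2 of 3, and SLITRK1 and SLITRK5 were 2 of 4. The LRRTM, NCAM, GABR, HTR, KRTAP and DEFB families had 0 flanking genes, and olfactory receptors made up 0.831% of the flanking genes and 2.09% of all genes. Over the 20 symbol families counted, 50 of 361 flanking genes were members (13.9%, against 7.02% of all autosomal genes). These shares are descriptions with no test, and long intervals without the mark were not examined.

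Libraries differed widely in how much of the gene-free span they covered. The covered share was 66.5% and 61.0% for replicates 1 and 2 of LmnB1_16, 90.7% and 51.9% for those of LmnB1_6, 59.3% and 59.4% for those of mCherry_3, and 51.7% and 37.6% for those of mCherry_4. The highest and the third lowest values came from replicates of the same LmnB1 clone, and the constructs overlapped. Reads inside autosomal domains ranged from 2674805 in mCherry_4 replicate 1 to 9789022 in LmnB1_16 replicate 1. Library depth relative to input ranged from 0.421 in mCherry_4 replicate 1 to 1.01 in LmnB1_16 replicate 2, and its part in the differences was not tested. The counts of the mCherry_3 replicates over 227 domains with identical coordinates gave no difference by a chi-square test (p = 0.353 over reads, not samples), while those of mCherry_4 differed (p = 0.0121). Domains with identical coordinates are those on which both lists already agree. The mCherry_3 replicates were therefore counted as 1 sample, as their mean, in every test between the constructs. Those of LmnB1_16 (p = 0.0397 by the same chi-square test) and LmnB1_6 (p = 0.000368) stayed separate samples. The mCherry_4 libraries thus weigh more in the mCherry means than the mCherry_3 pair. Lists hold no expression, so the label of the cells could not be checked. The epithelial markers RPE65, BEST1, RLBP1, TYRP1, PMEL, KRT8 and KRT18 overlapped a domain in 0 libraries, and MITF and OTX2 in 2 each. The share over all genes was not computed, so these overlaps do not bear on what the cells are.

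**Figure D1:**
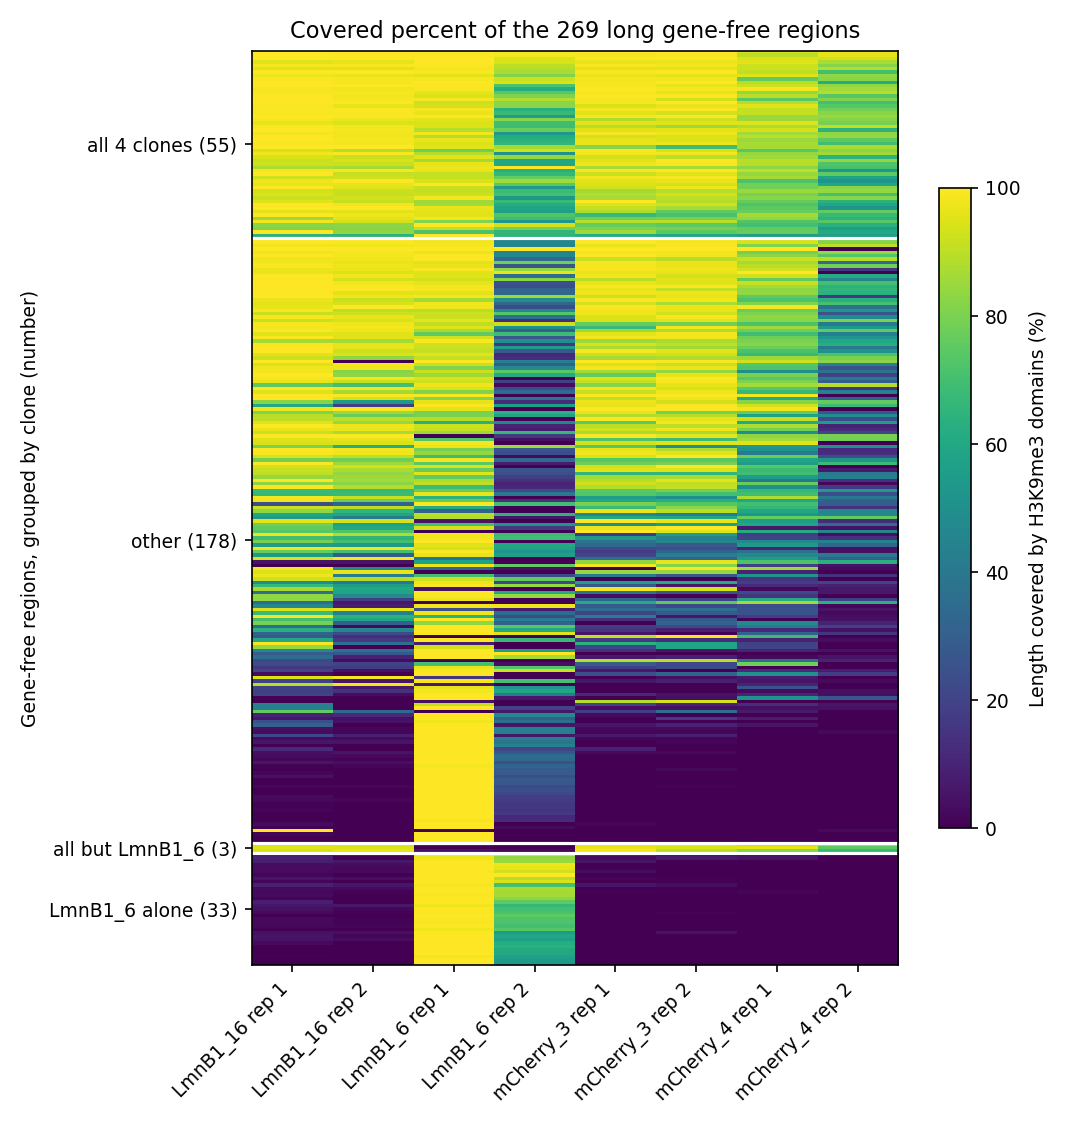
Covered percent of each of the 269 gene-free regions (rows, grouped by the clones that hold them and sorted by mean within a group) in each of the 8 libraries (columns), from 0 (dark) to 100% (yellow). The first LmnB1_6 column is yellow over most of the map, and the 33 regions at the bottom are filled in both LmnB1_6 columns and nearly empty in the other 6.

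In Mb, the LmnB1 libraries covered 103 ± 25.3 (SD, n = 4) and the mCherry samples 75.7 ± 16.9 (SD, n = 3). The difference of 27.5 Mb was smaller than could be told from the spread (exact two-sided permutation test, p = 0.143, adjusted over 4 measures 0.343), and 35 assignments of the samples allow no p below 0.0286. With the mCherry_3 replicates as 2 samples the difference was 23.7 Mb (exact permutation, adjusted p = 0.343). Replicates share a clone, and if whole clones are assigned (6 ways) no p below 0.333 can be had. In a bulk profile, fewer cells that carry the mark and less mark per cell cannot be told apart.

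Fragmentation separated libraries more clearly than the covered length did. The number of domains per covered Mb was 5.35 and 4.94 for LmnB1_16 (replicates 1 and 2), 4.35 and 12.9 for LmnB1_6, 5.37 and 5.48 for mCherry_3, and 17.1 and 18.2 for mCherry_4. Both mCherry_4 libraries and LmnB1_6 replicate 2 cut the regions into more pieces than the other 5 libraries, which lay close together. The median length of a piece was 39 and 35 kb in mCherry_4 and 50 kb in LmnB1_6 replicate 2, and from 52 to 141 kb elsewhere. Those 3 libraries also had the lowest log2 enrichment over input inside the regions (0.85, 0.72 and 0.70), which was between 0.87 and 1.14 in the other 5. By construct, LmnB1 had 6.89 ± 4.05 (SD, n = 4) and mCherry 13.6 ± 7.10 (SD, n = 3) domains per covered Mb, a difference that did not hold up against the spread (exact permutation p = 0.171, adjusted 0.343). Neither the number of domains (658 ± 252 against 965 ± 437, adjusted p = 0.381 by the same exact permutation test) nor the median piece length (82.0 ± 42.5 against 54.2 ± 29.8 kb, exact permutation, adjusted p = 0.429) did. With the mCherry_3 replicates as 2 samples the difference in domains per covered Mb was -4.67 (exact permutation, adjusted p = 0.343).

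**Figure D2:**
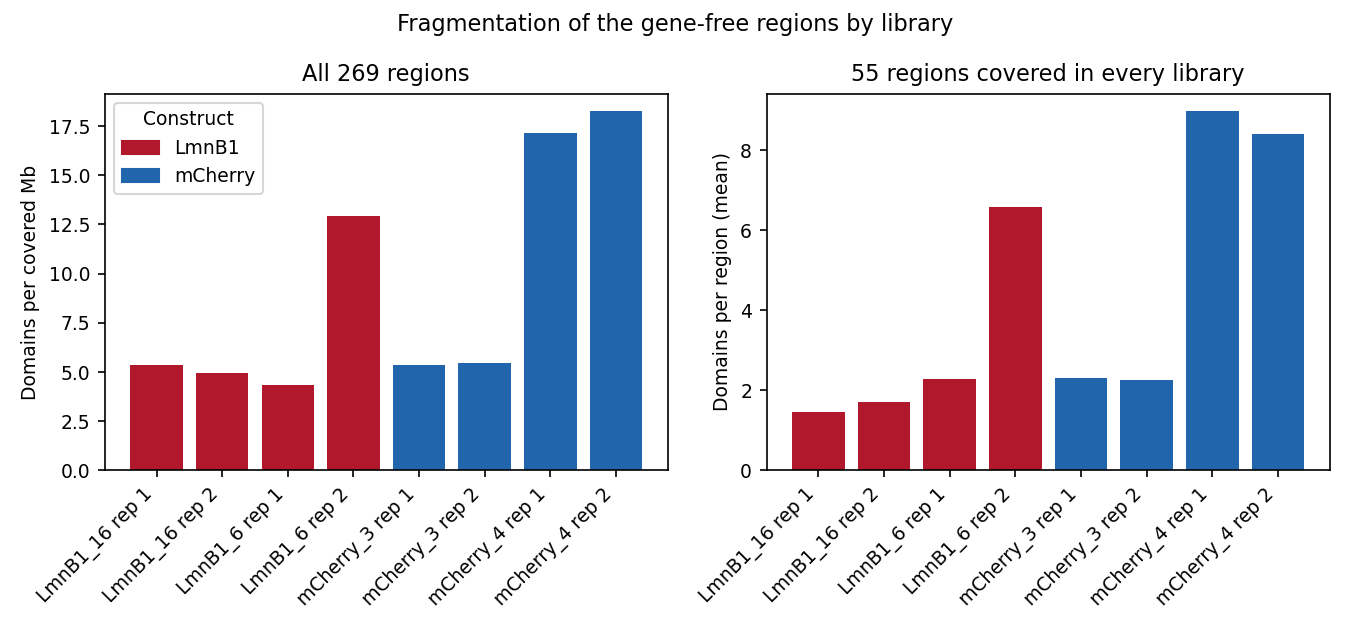
Number of domains per covered Mb over all 269 regions (left) and mean number of domains per region over the 55 regions covered in every library (right), 1 bar per library, red for LmnB1 and blue for mCherry. In both panels LmnB1_6 replicate 2 and the mCherry_4 replicates stand above the other 5 libraries.

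A core of regions was covered in every clone. With a clone said to hold a region when both of its replicates covered at least 50%, 55 of the 269 regions (20.4%, 41.5 Mb) were held by all 4 clones. The rate was 17.3% among all 1331 regions of at least 50 kb tested and 30.7% among the gene-holding regions. The share of the gene-free regions was thus near the background. The definitions of clone patterns here and below were set after the values were seen. Without LmnB1_6 replicate 2 the count was 85 (background not computed). Within the 55 regions the number of domains was 80 and 94 for LmnB1_16, 125 and 362 for LmnB1_6, 127 and 124 for mCherry_3, and 493 and 462 for mCherry_4. As single unbroken domains stood 34 and 27 of the 55 for LmnB1_16, 19 and 5 for LmnB1_6, 22 and 22 for mCherry_3, and 1 and 1 for mCherry_4. The median break was 4 or 5 kb in each library, at the floor of 4 kb below which no list has a gap. The longest break ranged from 13 kb for LmnB1_6 replicate 1 to 812 kb for mCherry_3 replicate 2, and LmnB1_6 replicate 2, with 307 breaks, covered 73.2% of the span.

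The fullest of these regions were near-complete in every library. The region between SEL1L and LOC124903401 (chr14:82037001-82348000) was covered by 100%, 100%, 100% and 98.1% in the LmnB1 libraries and by 100%, 100%, 93.2% and 96.5% in the mCherry libraries. The region between CHORDC1 and FAT3 (chr11:90406001-90966000) holds DISC1FP1 and the MIR4490 and MIR1261 sites printed above, and its lowest value was 93.0%. It was listed as 1 domain in 5 libraries and as 5, 8 and 5 in LmnB1_6 replicate 2 and the mCherry_4 replicates. The pericentromeric stretch between ZNF254 and UQCRFS1 (chr19:27241001-27641000) held no gene of any kind counted, and was covered by 90% to 100%.

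The longest core regions showed how differently 1 stretch was divided. The region between VRK1, a chromatin kinase, and BCL11B, a zinc finger factor of T cell and neuronal development (chr14:96927001-99134000, 2207 kb, with 24 lncRNAs, LINC02914 among them), filled 96.5% of the interval between both genes. It was covered by 99.7%, 98.1%, 94.4% and 80.6% in the LmnB1 libraries and by 99.3%, 99.3%, 89.8% and 74.1% in the mCherry libraries. Its domains numbered 1, 3, 3 and 21 in the former and 1, 2, 30 and 28 in the latter. Coverage was thus high throughout, and the count of pieces followed the library. The longest region of all lay between MAT2B, a subunit of the enzyme that makes S-adenosylmethionine, and TENM2 (chr5:163673001-166141000, 2468 kb). LmnB1_6 replicate 1 listed it as 1 domain of 2468 kb, LmnB1_6 replicate 2 covered 65.1% in 21 pieces, and the other 6 covered between 56.2% and 64.8% in 2 to 23. The merged length of that region therefore rests on 1 library.

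Other regions among the longest also differed between libraries. Between HS3ST5 and FRK (chr6:114346001-115896000) coverage ran from 68.9% to 99.3%, with 1 domain in LmnB1_16 replicate 1 and 18 in mCherry_4 replicate 1. Between TENM4 and FAM181B (chr11:80047001-81796000) it ran from 66.7% to 99.7%, and between DPP10 and DDX18 (chr2:116055001-117649000) from 63.4% to 99.5%. Between COBL, an actin nucleator, and POM121L12 (chr7:51431001-53026000) LmnB1_6 replicate 2 had 27.3% and LmnB1_16 replicate 1 had 99.1%, with 30 pieces in mCherry_4 replicate 1. In each of these 4 regions the lowest coverage was that of LmnB1_6 replicate 2. Between EDIL3 and COX7C (chr5:84868001-86511000) LmnB1_6 replicate 1 covered 100% and the mCherry libraries 63.4% to 76.2%. The region between the neural adhesion genes LSAMP and IGSF11 (chr3:116761001-118631000, with 12 lncRNAs and MIR4447) was patchy everywhere, with 36.2% to 78.2% covered in 9 to 21 pieces.

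**Figure D3:**
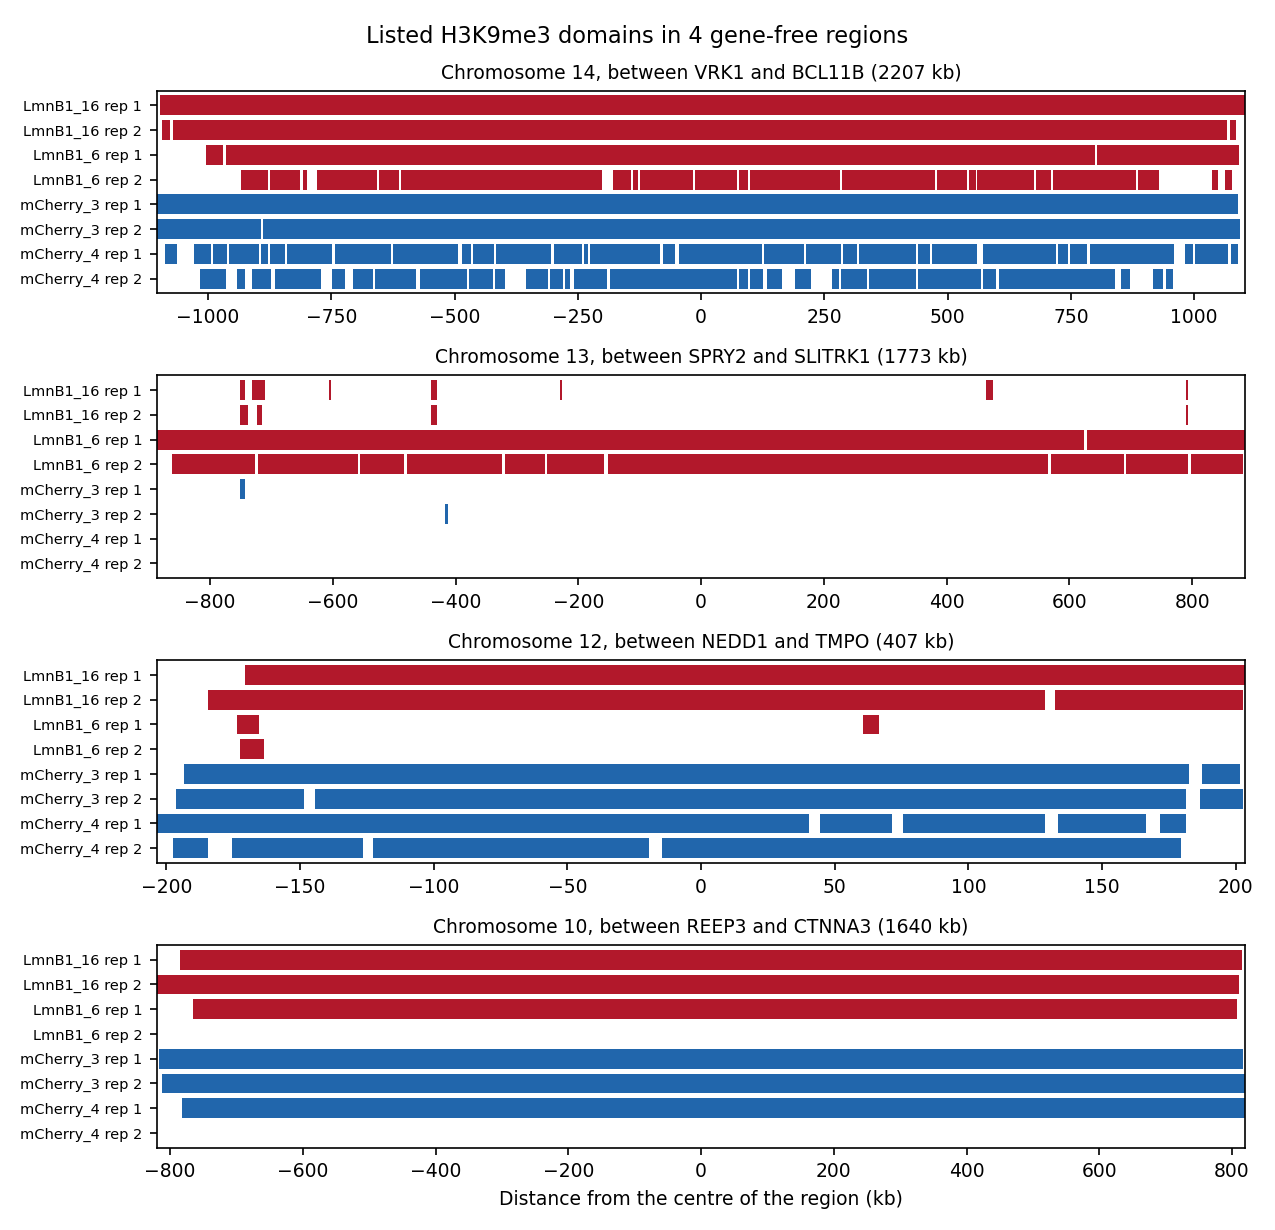
Listed H3K9me3 domains (bars, red for LmnB1 and blue for mCherry) in each library along 4 gene-free regions, against distance from the region's centre in kb. The chromosome 14 region is filled in all libraries with many short breaks in 3 of them, the chromosome 13 region is filled in LmnB1_6 alone, the chromosome 12 region is missing in LmnB1_6, and the chromosome 10 region is unbroken in 6 libraries and unlisted in 2.

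The most frequent pattern that set clones apart was H3K9me3 in LmnB1_6 alone. It was met by 33 of the 269 regions (12.3%, 19.4 Mb on 12 chromosomes), where both LmnB1_6 replicates covered at least 50% and all other libraries at most 10%. The background was 8.11% of the 1331 regions tested, and 50 of 486 gene-holding regions (10.3%) met it. Without LmnB1_6 replicate 2 the count was 64 (background not computed). These regions entered the set through the domains of LmnB1_6 itself, so their presence there is a description. The same pattern for LmnB1_16 alone was met by 0 regions (background 0.526%), for mCherry_4 alone by 0 (background 0%) and for mCherry_3 alone by 1 (background 0.225%). Held by both LmnB1 clones and missing in both mCherry clones were 0 (background 0.0751%). Over the 33 regions the median coverage was 100% and 72.6% for LmnB1_6 replicates 1 and 2, 2.56% and 0.834% for LmnB1_16, and 0% for each mCherry library. In mCherry_4 replicate 2 all 33 regions held no domain, and in mCherry_4 replicate 1 31 held none.

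The longest such region lay between SPRY2, an inhibitor of receptor tyrosine kinase signalling, and SLITRK1 (chr13:80536001-82309000, 1773 kb, with LINC00377 and 8 other lncRNAs). LmnB1_6 covered 99.7% and 96.2% of it in 2 and 10 domains. LmnB1_16 covered 3.50% and 2.03%, mCherry_3 0.451% and 0.338%, and both mCherry_4 replicates 0%. The next was the chromosome 10 region between SORCS1, a sorting receptor, and XPNPEP1 (chr10:108317001-109812000, 1495 kb), which LmnB1_6 covered by 100% in both replicates in 1 domain each, while LmnB1_16 covered 1.27% and 0% and mCherry 0% in every library. The CpG-rich LOC105378477 promoter printed above lies there. The shared input on the long arm of this chromosome, which was raised in 6 gene-free regions, is described below. Regions of the same pattern lay between POT1 and the glutamate receptor gene GRM8 (chr7:124994001-126407000, 100% and 82.7% in LmnB1_6, at most 1.06% elsewhere) and between ANKRD7 and the potassium channel gene KCND2 (chr7:118245001-119666000, 99.4% and 71.4%, at most 2.53% elsewhere). The 3 regions after the first were picked from the 33 for length, after their values were seen.

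The reverse pattern was rare. Held by the other 3 clones and missing in LmnB1_6 were 3 regions (background 0.301%). The count was 6 without LmnB1_6 replicate 1 and 5 without mCherry_4 replicate 2 (backgrounds not computed). Of the 3 regions, 2 are neighbours in the interval between NEDD1, a centrosome protein gene, and TMPO, which encodes the lamin-binding protein LAP2. The first (chr12:97319001-97726000) contains RMST, a lncRNA of neuronal differentiation, with MIR1251 and MIR135A2. It was covered by 91.9% and 94.1% for LmnB1_16, 3.44% and 2.21% for LmnB1_6, 95.8% and 95.8% for mCherry_3, and 90.2% and 88.2% for mCherry_4. The second (chr12:97728001-98206000) carries MIR4495 and MIR4303 and was covered by 0% in both LmnB1_6 replicates and by 75.3% to 96.2% in the other 6. The third (chr18:75552001-75847000), beyond SMIM21, holds LINC01898 and was covered by 4.41% and 2.37% in LmnB1_6 and by 67.8% to 98.6% elsewhere. By the definition of the pattern, each of the 3 regions split LmnB1_6 from LmnB1_16, which carried the same construct. In 1 region on chromosome 11 (background 0.15%), between INSC and the transcription factor gene SOX6 (chr11:15311001-15883000), 1 clone of each construct was covered, by 86.5% and 59.8% in LmnB1_16 and 98.6% and 93.9% in mCherry_3, against 6.64% or less in the other 4 libraries.

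The replicates of LmnB1_6 themselves disagreed most. In 105 of 269 regions they lay over 50 points apart, always with replicate 1 higher, against 26 regions in mCherry_4, 7 in LmnB1_16 and 1 in mCherry_3. Among gene-holding regions 22.8% of the LmnB1_6 values were that far apart, against 39.0% among the gene-free ones. Of the 5 regions with the lowest mean coverage, 4 were covered by 100% in LmnB1_6 replicate 1 and by at most 3.03% in any other library. They lie between RASGEF1B and HNRNPD (chr4:81531001-81745000), ANKRD7 and KCND2 (chr7:119670001-119999000), KCNV1 and CSMD3 (chr8:111035001-111281000), and OBI1 and RBM26 (chr13:78723001-79152000). The fifth, between NRIP1 and USP25 (chr21:15156001-15378000), was covered by 100% in LmnB1_16 replicate 1, by 2.70% in mCherry_4 replicate 2 and by 0% in the other 6.

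Sharing by bases gave the same picture. Of the gene-free span, 13.9% was listed in 1 library only, and bases of LmnB1_6 replicate 1 alone made up 12.4%. A further 19.4% was listed in 2 libraries and 19.6% in all 8. In the gene-holding regions these shares were 5.95%, 10.6% and 30.2%.

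**Figure D4:**
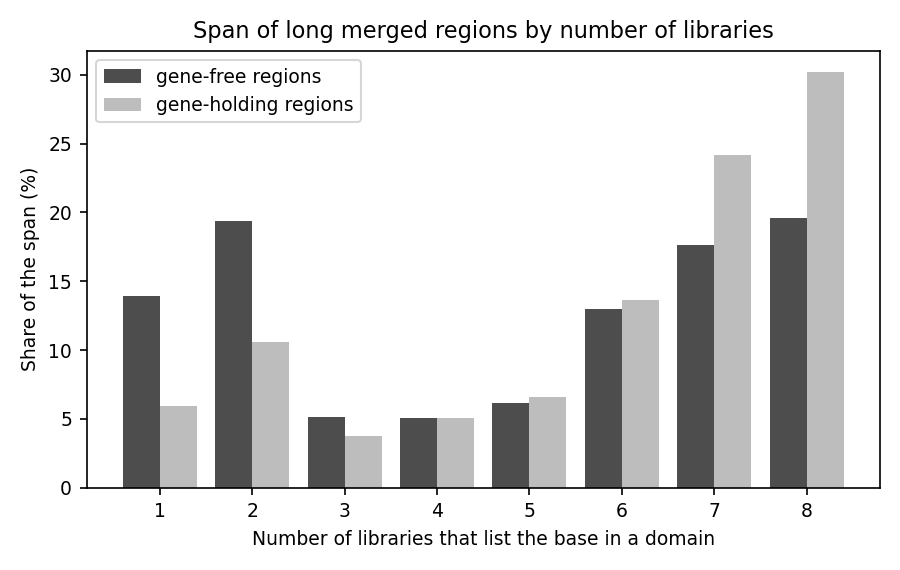
Share of the span (y axis, percent) of the gene-free (dark) and gene-holding (light) regions by the number of libraries that list a base (x axis, 1 to 8). Both classes peak at 8 libraries and have a second, lower peak at 2, at 19.4% in the gene-free and 10.6% in the gene-holding regions.

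Between constructs, limma called 0 of the 1331 regions at an adjusted p below 0.05 in either direction (background 0%), and so 0 of the 269 gene-free regions. The smallest adjusted p among the 269 was 0.491. At an unadjusted p below 0.05, limma gave 11 gene-free regions higher with LmnB1 (4.09%, background 2.48%, gene-holding regions 3.09%) and 2 lower (0.743%, background 0.526%, gene-holding 0.206%). Those counts were 47 and 3 when LmnB1_16 lacked replicate 1, 40 and 3 when it lacked replicate 2, and 5 and 4 with each library's mean subtracted. By order of values alone, the lowest LmnB1 value exceeded the highest mCherry value in 43 of 269 regions (15.99%, background 8.49%, gene-holding regions 10.9%). The reverse held in 2 (0.743%, background 0.676%, gene-holding 0.617%). Leaving out LmnB1_16 replicate 2 made these counts 74 and 2, and leaving out LmnB1_6 replicate 2 made them 72 and 2. Leaving out LmnB1_6 replicate 1 gave 43 and 6, and leaving out mCherry_4 replicate 2 gave 44 and 5. With every list cut to the highest-scoring domains of equal covered length they were 17 and 6. The part of unequal covered length in these counts was not tested. The share over all regions tested was not computed for the altered settings. Whether gene-free regions changed more than others is therefore not shown. Of the 43, 13 are regions that LmnB1_6 held alone, in which LmnB1_16 reached at most 10%. No gene-free region was covered by at least 50% in every LmnB1 library and at most 10% in every mCherry library, or the reverse (backgrounds 0.0751% and 0%).

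The region nearest to such a split lay between TRPC4, a cation channel gene, and UFM1, a ubiquitin-like modifier gene (chr13:38090001-38323000, 233 kb, with LINC00571). It was covered by 92.3% and 88.4% in LmnB1_16 and 92.7% and 76.0% in LmnB1_6. In both mCherry_3 replicates it was covered by 0%, and in mCherry_4 by 15.02% and 0%. The groups did not overlap, and limma put the difference at 82.9 points (SE 17.0, unadjusted p = 0.000917), but the adjusted p over 1331 regions was 0.491. Between JRKL and the contactin gene CNTN5 (chr11:98328001-99010000) the values were 84.3%, 48.4%, 99.6% and 84.5% with LmnB1 and 3.23%, 0%, 15.1% and 0% with mCherry (difference 74.1 points, SE 20.4, limma adjusted p = 0.667). Between FAM98A and CRIM1 (chr2:33682001-34078000) they were 98.2%, 98.2%, 93.4% and 57.6% with LmnB1 and 22.2%, 24.2%, 10.1% and 4.04% with mCherry (difference 73.1 points, SE 19.7, limma adjusted p = 0.649). In all 3 regions both LmnB1 clones stood above both mCherry clones, without passing the adjustment.

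The other regions with separated groups were less even. Between PDCD6IP and ARPP21 (chr3:34419001-34653000) LmnB1_16 covered 29.1% and 27.4%, LmnB1_6 100% and 99.6%, and mCherry 0% in all 4 libraries (difference 64.0 points, limma adjusted p = 0.907). Lower with LmnB1 were the regions between CADPS and SYNPR, both genes of vesicle proteins (chr3:62877001-63136000), and between the homeobox gene MEIS2 and TMCO5A (chr15:37347001-37590000). In the first, LmnB1 covered 35.1%, 6.56%, 0% and 0%, and mCherry 61.4%, 74.5%, 86.1% and 63.7% (difference -61.6 points, limma adjusted p = 0.825). In the second, LmnB1 covered 5.76%, 5.76%, 58.0% and 0%, and mCherry 83.5%, 96.3%, 72.0% and 63.4% (difference -59.5 points, limma adjusted p = 0.907). In all of these limma differences the mCherry_3 replicates entered as 1 mean.

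Compared with gene-holding regions of the same libraries, gene-free regions had a lower covered share in 7 of the 8 libraries. The difference in covered share, gene-free minus gene-holding, was -17.4 and -19.7 points for LmnB1_16, 1.34 and -5.15 for LmnB1_6, -17.7 and -17.2 for mCherry_3, and -15.4 and -15.1 for mCherry_4. The mean was -12.7 points (SD 7.76, n = 7, below 0 in 6 of 7). The lists that give these values also set the extent of the regions, so the difference is a description with no test, and it was -7.97 points when LmnB1_6 replicate 1 was left out of the merge and the comparison. The gene-free regions are shorter. With both classes limited to 200 to 500 kb the mean difference was -0.458 points, and with both at 500 kb or more it was -12.9. The log2 enrichment over input, gene-free minus gene-holding, was -0.0167 (SD 0.0117, n = 7, below 0 in 6 of 7), and at 200 to 500 kb it was -0.0376. The number of pieces per covered Mb was 1.01 higher (SD 1.11, n = 7), and at 200 to 500 kb the difference was -0.912.

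Coverage was higher in longer regions of both classes. The lists that give the coverage also set the lengths, so this is a description with no test. The median over regions of the mean covered share was 34.8% for gene-free regions of 200 to 300 kb (77 regions), 66.3% at 300 to 500 kb (80), 71.9% at 500 to 1000 kb (75) and 79.3% above (37). Gene-holding regions gave 36.6%, 63.2%, 76.5% and 84.0%. In the shortest class the median of LmnB1_6 replicate 1 was 97.4% and that of mCherry_4 replicate 2 was 0%.

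A group of 6 regions on the long arm of chromosome 10 stood apart in the shared input. Over the listed domains they held 12.2 to 13.2 input reads per kb, against a median of 8.51 over the other 263 regions. Only 1 other region exceeded 12, beside TPTE on chromosome 21 (chr21:9832001-10037000, 19.9). RPE-1 is known to carry an extra copy of much of this chromosome arm. In these 6 regions the listed domains were hardly broken in any library, with between 1.32 and 2.50 domains per covered Mb. These rates rest on only 2 to 8 domains per library. In the other 263 regions mCherry_4 had 17.9 and 18.5 domains per covered Mb and LmnB1_6 replicate 2 had 13.2. In the 6 regions those libraries had 1.92, 2.50 and 1.42, from 7, 2 and 3 domains, with 1, 4 and 3 of the 6 regions unlisted. The covered share of the 6 was 69.5% and 69.7% for LmnB1_16, 96.6% and 39.2% for LmnB1_6, 70.7% and 70.1% for mCherry_3, and 67.6% and 14.8% for mCherry_4.

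In several of these the domain was either whole or missing. The region between REEP3 and the catenin gene CTNNA3 (chr10:63909001-65549000, 1640 kb) was listed as 1 domain of 95.9% to 99.6% in 6 libraries and not at all in LmnB1_6 replicate 2 and mCherry_4 replicate 2. Between SORCS3 and SORCS1 (chr10:105383001-105776000) 7 libraries listed 1 domain of 99.7% or 100%, and mCherry_4 replicate 2 listed none. A region that is not listed is not shown to lack reads, since its enrichment may lie just under the limit of 0.6 (log2) that all lists share. The part of the copy number and of the shared input in these values was not tested.

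**Figure D5:**
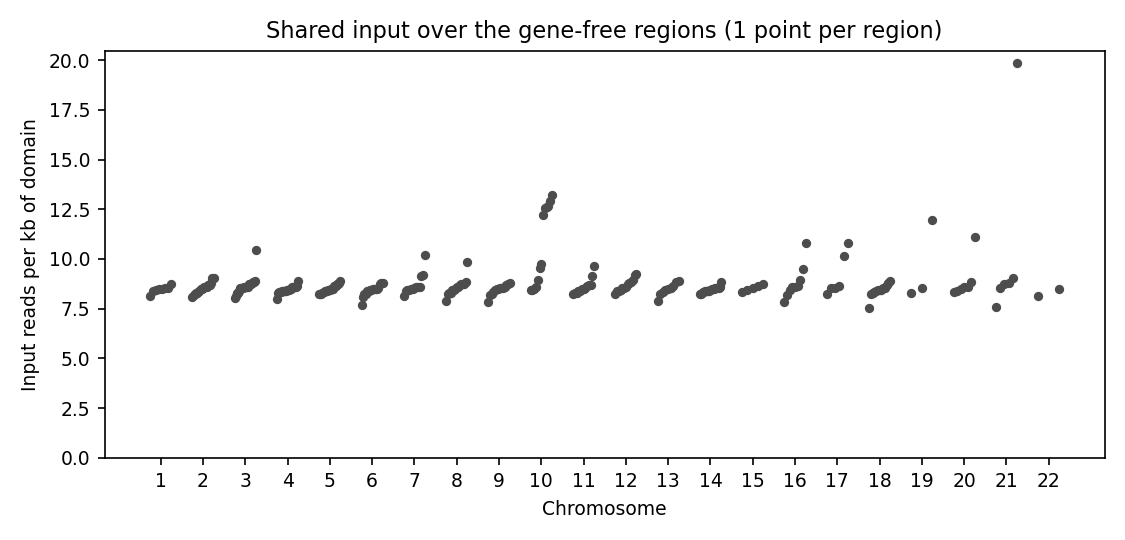
Reads of the shared input per kb of listed domain (y axis) for each of the 269 gene-free regions (points), by chromosome (x axis). Nearly all points lie close to the median of 8.52, and 6 of the 13 chromosome 10 points lie between 12.2 and 13.2.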

How the data were processed

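H3K9me3 Cut&Run was measured in 8 libraries of 4 clones. DNA came from an EpiCypher CUTANA protocol with antibody ab8898 and libraries from NEBNext Ultra II, per the labels' protocols. Named in the submitters' processing notes, without roles, are GRCh38 and hg38 as builds and deepTools, DESeq2, SICER and DiffBind 3.0.15 as tools. Which aligner was run was not given in the sources used here. Each deposited list holds domains called per library, with a count of H3K9me3 reads and a count of input reads, a p-value and an adjusted p-value, a log2 enrichment and a score of 100 times that log2, all as deposited by the authors. The log2 values begin just above 0.6 and starts fall on steps of 1000 bp.

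Listed ends were raised by 1. A library's read counts stop at its own listed domains, so covered percent was compared and no count model was run. limma 3.58.1 (R 4.3.3) was fitted to 1331 autosomal merged regions of at least 50 kb and a mean of at least 5%, with a random effect of clone, and p-values were adjusted by Benjamini-Hochberg (threshold 0.05). Library values were compared by exact permutation, and classes are described by their differences within 7 samples. The exact sign flips planned for these (smallest p 0.0156) were run but support no result, since the lists also set the regions, and serve only to sort alternatives in the closing section. Enrichment per class is the log2 ratio of summed reads to summed input reads plus the list's depth constant. Gene positions, promoters and microRNAs came from RefSeq tables of GRCh38.p14, and 20 of 26 microRNA genes had a hairpin there. Region sequences were not used here. Scripts ran in Python 3.11.15 with scipy 1.17.1, pandas 2.3.3, numpy 2.4.6 and matplotlib 3.10.9, and the functions were tested on simulated data.

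The members and lists were chosen with earlier results of these data known. Regions were named by rule: the 10 longest, the 5 fullest and 5 emptiest, the 5 with most domains and the 5 with the widest range of domains, the 5 largest differences per direction with separated groups, and 3 on each side of the length limit. Some regions that the rule names are not reported here. Replicate numbers did not pair the samples, with correlations of deviations from -0.188 to 0.0851 over 269 regions. Depth alternatives, left-out libraries, other length limits and other definitions were tried, and those on clone patterns were chosen after seeing the data. The p-values measure the spread between these libraries, of which 2 share each clone.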

Additional observations from a re-analysis of the deposited data

Results flagged for a closer look

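Among 14 groups of the 4 LmnB1 libraries examined for a value far from the others, 3 stood out. The mCherry libraries were not examined. The rule has a rate of about 1 in 20 for independent values. That rate does not apply here, since replicates share a clone and some groups are regions picked for separated values. The library LmnB1_6 replicate 2 had 12.9 domains per covered Mb of the gene-free regions, while the other LmnB1 libraries had 4.35 to 5.35. In the region between FAM98A and CRIM1 on chromosome 2, LmnB1_6 replicate 2 covered 57.6%, while the other LmnB1 libraries covered 93.4% to 98.2%. In the region between MEIS2 and TMCO5A on chromosome 15, LmnB1_6 replicate 1 covered 58.0%, while the other LmnB1 libraries covered 0% to 5.76%. All 3 values come from LmnB1_6, 1 of the 2 clones examined, whose replicates also differ most in the covered share of the regions.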

How the results depend on the processing

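The 4 comparisons of library values between constructs kept their direction under all 18 alternatives each. The difference ran from 5.39 to 35.4 Mb for the covered length and from -8.72 to -1.99 for domains per covered Mb. None passed the threshold. Without a LmnB1 or mCherry_4 library, without clone LmnB1_6, or within the replicate block, too few assignments exist for any p below it. Those settings could therefore not decide the call. limma called 0 gene-free regions under each of its 18 alternatives, and 7 differences of regions with separated groups kept their sign. These 7 regions were picked for separated groups in the same data. Leaving out a library could therefore not reverse their sign, and the kept sign is no support. A permutation within the replicate block, with mCherry_3 as 2 samples, gave differences of 23.7 Mb (exact permutation, adjusted p = 0.444), -188 domains, -4.67 domains per covered Mb and 19.3 kb, and changed no call, limma with the replicate block included. Of the recomputed values that answer a comparison, 214 were classed as the same, 24 as moved, 22 as weaker, 4 as stronger and 1 as reversed. A count was classed as the same when it stayed within a set ratio of the reported count, and some of these counts were 0 throughout. All 126 values of single regions, which are those of the 7 regions picked for separated groups, kept their direction and call. Their direction was largely fixed by that choice.

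Each cause below was not tested, unless the setting uses fewer samples or regions. The class differences are descriptions. Weaker and stronger mean only that the adjusted sign-flip p crossed 0.05, and say nothing of the size of the difference. With 1 value per clone that test allows no p below 0.125. With clone LmnB1_6 left out it also allows none below 0.05, so weaker was fixed in advance in both settings. The covered share difference, gene-free minus gene-holding, was weaker by the sign-flip test with regions of at least 500 kb (-12.9 points). The same held with both classes at 200 to 500 kb (-0.458) and with 1 value per clone (-13.3). Regions merged without LmnB1_6 replicate 1 (-7.97) and clone LmnB1_6 left out (-17.0) also made it weaker. Leaving out any single LmnB1 or mCherry_4 library made it weaker too, and leaving out a single mCherry_3 library did not. Over all single libraries left out it ranged from -15.0 to -11.5. The log2 difference was weaker by that test at equal covered length (-0.00966), at 500 kb or more (-0.00489) and with 1 value per clone (-0.0166). It was also weaker without LmnB1_6 replicate 1 in the merge (-0.0139) or without LmnB1_6 (-0.0161). Over all single libraries left out it ranged from -0.0198 to -0.0132. Leaving out the same single LmnB1 or mCherry_4 libraries made it weaker by that test. Domains per covered Mb reversed at matched length (-0.912), and was stronger by it with mCherry_3 as 2 samples (1.06), the highest-scoring 50% of each list (0.839), domains under 10 kb apart joined (1.33) and regions of at least 100 kb (1.48).

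Members numbered 405 at a limit of 100 kb, 112 at 500 kb and 241 to 281 with 1 list left out of the merge. Regions with all LmnB1 values higher, and lower, numbered 17 and 6 at equal covered length and 12 and 7 with the highest-scoring 50% of each list, and ranged from 43 to 74 and from 2 to 6 without single replicates. By the 50% and 10% definition they numbered 2 and 2 with at least 3 of 4 libraries on each side, and 0 to 1 in each direction without single replicates. Regions held by all 4 clones numbered 33 at equal covered length, 7 with the highest-scoring 50%, 85 when held meant 30%, and 55 to 85 without single replicates. Regions of LmnB1_6 alone numbered 9 with the highest-scoring 50% and 33 to 64 without single replicates, and regions of all clones but LmnB1_6 numbered 0 and 3 to 6. The share over all regions tested was not computed for any of these altered counts. Unlisted regions have no counts here, so the part of depth in what is listed was not tested.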
